A study of Homo sapiens with 4 samples.

Results

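The prostaglandin and leukotriene enzymes measured here are 10 genes that carry arachidonic acid from the membrane to its active lipid products and onward to their breakdown: PTGS1, PTGS2, PTGES, PTGES2, PTGES3, ALOX5, ALOX5AP, LTA4H, PLA2G4A and HPGD. They were taken by name, from the gene name printed for each probe or from the RefSeq transcript the probe was designed on. All 10 were on the array, with 17 of its 50238 probes, among 30988 named genes and transcripts. Gene expression was measured in A549, a human lung adenocarcinoma cell line, on Agilent oligonucleotide arrays, on which Cy3-labelled RNA from 1 sample binds to short probes and the brightness of each spot is the signal. There were 2 control samples, labelled as having no embelin, and 2 samples treated with embelin at 15 µM for 4 h, each on 1 array. In all 4 the cells had been moved to medium with less serum before treatment. Embelin is a plant benzoquinone known as an inhibitor of XIAP and also reported to inhibit 5-lipoxygenase and microsomal prostaglandin E synthase as enzymes, so the comparison asks what exposure to the compound did to the transcripts of those enzymes and of their neighbours in the pathway. A549 is a single established line grown in culture. The sources used here do not say whether the controls received the solvent of the compound, or whether the samples of a group came from separate cultures, so the p-values below measure the spread between these samples, which may be technical.

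Cytosolic phospholipase A2 releases arachidonic acid from membrane phospholipids, and the free acid then enters either of 2 branches. In the prostaglandin branch the cyclooxygenases make prostaglandin H2, and terminal synthases turn it into prostaglandin E2 and other prostanoids. In the leukotriene branch 5-lipoxygenase, helped by its activating protein, makes leukotriene A4, which LTA4 hydrolase turns into leukotriene B4. COX-2, the product of PTGS2, is the classical inducible enzyme of the pathway, while COX-1, the product of PTGS1, is regarded as the constitutive form. The leukotriene branch is best known from leukocytes, and the prostaglandin E2 branch is active in many epithelial and carcinoma cells, A549 included.

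The promoters of 3 enzymes are shown first, because the only transcript of the 10 that passed the test lies next to one that did not: PTGS2 and PLA2G4A are neighbouring protein-coding genes on chromosome 1. PTGES is shown as the terminal synthase that takes the COX-2 product. Each sequence is the 250 bases before the transcription start in RefSeq, build GRCh38.p14, written 5′ to 3′ along the strand of the gene, and capitals mark motif matches. The PTGS2 promoter is chr1:186680424-186680673 on the minus strand, that of PLA2G4A is chr1:186828699-186828948 on the plus strand, and that of PTGES is chr9:129753043-129753292 on the minus strand.
PTGS2: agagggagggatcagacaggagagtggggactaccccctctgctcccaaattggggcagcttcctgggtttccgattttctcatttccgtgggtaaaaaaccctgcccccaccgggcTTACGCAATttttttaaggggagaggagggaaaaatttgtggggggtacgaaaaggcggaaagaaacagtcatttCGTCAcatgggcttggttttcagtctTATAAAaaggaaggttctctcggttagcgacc
PLA2G4A: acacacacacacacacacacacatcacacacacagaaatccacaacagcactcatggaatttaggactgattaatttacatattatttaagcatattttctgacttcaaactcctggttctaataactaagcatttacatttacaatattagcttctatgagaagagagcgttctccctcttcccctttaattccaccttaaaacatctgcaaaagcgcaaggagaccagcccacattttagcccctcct
PTGES: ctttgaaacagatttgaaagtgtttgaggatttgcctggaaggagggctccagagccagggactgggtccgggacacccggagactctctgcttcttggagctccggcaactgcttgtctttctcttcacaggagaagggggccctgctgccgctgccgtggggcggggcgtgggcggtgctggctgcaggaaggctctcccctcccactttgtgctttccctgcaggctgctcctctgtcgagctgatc

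The motifs searched on both strands were TATAAA (the TATA box), CGTCA (the half-site of the cAMP response element), TTNNGNAAT (bound by C/EBP factors), TGANTCA (AP-1), CACGTG (the E-box) and TGATGNAA (the composite element of C/EBP and ATF factors). The PTGS2 promoter held TATAAA starting 32 bases before the start, CGTCA 58 bases before it and TTACGCAAT, a match to the C/EBP motif, 133 bases before it, and these matches did not overlap one another. Of 35116 promoters of the same length, 10.7% held TATAAA, 21.2% held CGTCA and 9.85% held TTNNGNAAT. None of the 6 motifs matched in the promoters of PLA2G4A and PTGES. Among the other enzymes, PTGES3 had CGTCA 21 bases before its start, HPGD had CGTCA 77 bases before its second start, PTGES2 had CACGTG 128 bases before its second start, and PTGS1 had TATAAA on the reverse strand, 208 bases before its first start. The table of promoters covered 9 of the 10 enzymes with 13 starts, and ALOX5 was not among them. A match is a description of the letters and does not show that a factor bound there.

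PTGS2, which encodes COX-2, rose with embelin. Signals are given on the log2 scale after the arrays were scaled to the same 75th percentile, so that a difference of 1 is a 2-fold change. The probe that stands for the gene read 11.61 and 11.22 on control arrays 1 and 2 and 14.78 and 14.54 on embelin arrays 1 and 2, so both embelin arrays lay well over both controls. The mean went from 11.42 ± 0.27 (SD, n = 2) to 14.66 ± 0.17 (SD, n = 2), a log2 difference of 3.25 with a standard error of 0.21, which is 9.49-fold with a 95% interval of 6.28 to 14.3 (limma, Benjamini-Hochberg adjusted p = 0.0243). A second, separate PTGS2 probe showed a rise of like size, from 9.67 ± 0.48 to 13.03 ± 0.01 (SD, n = 2 each), a log2 difference of 3.36 with a standard error of 0.28 (adjusted p = 0.0361 when every probe was tested on its own in limma). Among the 303 genes called higher, PTGS2 ranked at 55 by fold change.

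The call on PTGS2 was lost when any 1 array was left out, while the size of the difference changed little. Without 1 array at a time the log2 difference ran from 3.05 to 3.44 and the limma adjusted p from 0.0934 to 0.191, and without any 1 of the arrays no gene of the whole table was called, although 2171 to 3288 genes had an unadjusted p under 0.05. Control 1 and embelin 2 had 66.7% and 66.3% of probes well above background, against 49.9% on both control 2 and embelin 1, and within these pairs of like arrays PTGS2 differed by 2.93 and by 3.56 on the log2 scale. With the replicate number as a block the adjusted p from limma was 0.0636, without a filter on dim probes it was 0.292, and by the methods' t-test it was 0.162. An exact permutation test over 2 arrays against 2 cannot go below p = 0.333.

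**Figure D1:**
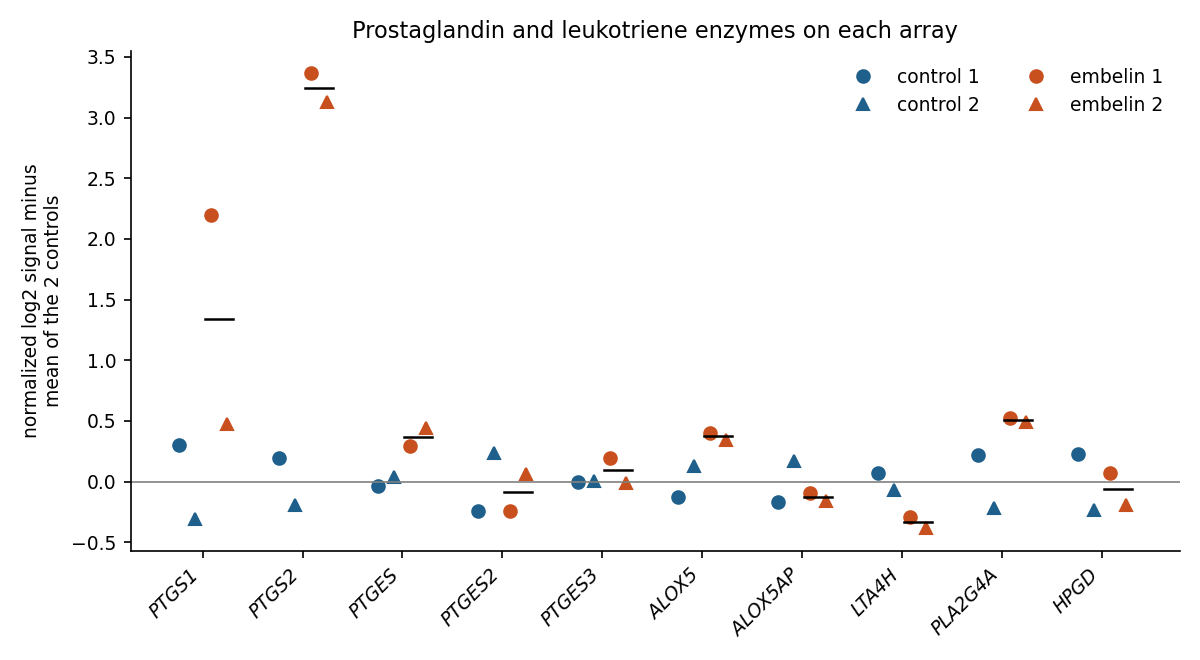
Normalized log2 signal of each of the 10 enzymes on each array, minus the mean of the 2 control arrays (vertical axis, log2 units), with circles for replicate 1, triangles for replicate 2, blue for control, orange for embelin and a black line at the embelin mean. Both embelin points of PTGS2 lie over 3 log2 units above its control mean, PTGS1 has 1 high embelin array, and the other 8 enzymes stay within 1 unit of 0.

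PTGS1, which encodes COX-1, was near the limit of detection and its difference rested on single arrays. It read 4.16 and 3.55 on the controls and 6.05 and 4.33 with embelin, and 1 of the 2 control arrays was not well above background. The groups did not overlap, but the embelin arrays lay further apart from each other than embelin 2 did from the controls. The log2 difference was 1.34 with a standard error of 0.66 and a 95% interval of -0.50 to 3.18 (limma, adjusted p = 0.358). With the control array that was not well above background set at the lowest signal so called there, a setting chosen after the data were seen, the difference was 0.19. Within the pairs of arrays of like background it was 0.17 and 2.51, and without embelin array 1 it fell to 0.48, against 2.20 without embelin array 2. The lowest signal called well above background was 5.85 on control 2 and 6.03 on embelin 1, but 3.81 and 3.87 on control 1 and embelin 2, and the PTGS1 readings on the first pair lay under or just over those limits. The other PTGS1 probe was not well above background on any array, with means of 2.99 in the controls and 3.14 with embelin. Dim genes varied more in general. Over the 996 genes with a mean signal under 6, the median difference between the embelin arrays, taken without sign, was 0.85. It was 0.16 over the 7753 genes with a mean signal over 10. With sign, the median of embelin 1 minus embelin 2 was 0.39 in the dim genes and -0.01 in the bright ones. The median log2 fold change was 0.25 in the dim genes and -0.03 in the bright ones. The part of array background in the PTGS1 difference was not tested.

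The terminal prostaglandin E synthases did not pass the test. PTGES, the inducible microsomal synthase that is commonly coupled to COX-2, read 8.77 and 8.84 on the controls and 9.10 and 9.25 with embelin. Both embelin arrays were higher, by a log2 difference of 0.37 with a 95% interval of -0.06 to 0.79 (standard error 0.15, limma adjusted p = 0.294), so a rise as large as 2-fold lies outside the interval. PTGES2, a second membrane-associated synthase, read 9.93 and 10.40 on the controls and 9.93 and 10.23 with embelin. These groups overlapped, and the log2 difference was -0.09 with a 95% interval of -0.77 to 0.60 (limma, adjusted p = 0.886).

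PTGES3 encodes the cytosolic synthase, better known as p23, a co-chaperone of HSP90. Its brightest probe read 15.39 and 15.40 on the controls and 15.59 and 15.38 with embelin, a log2 difference of 0.09 with a 95% interval of -0.35 to 0.54 (limma, adjusted p = 0.797), and the groups overlapped. The other 3 PTGES3 probes differed by 0.18, 0.34 and 0.27 in log2, and 1 of these 3 had groups that did not overlap. All 4 PTGES3 probes were thus above 0, and none passed the test when each was fitted on its own (limma, adjusted p of 0.453 to 0.844). PTGES was the only prostaglandin E synthase whose probe separated the groups among the probes that stand for these 3 genes.

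In the leukotriene branch no transcript passed the test. ALOX5, which encodes 5-lipoxygenase, read 7.33 and 7.58 on the controls and 7.86 and 7.81 with embelin. Both embelin arrays lay above both controls, with a log2 difference of 0.38 and a 95% interval of -0.09 to 0.84 (standard error 0.17, limma adjusted p = 0.321). ALOX5AP, whose product presents arachidonic acid to 5-lipoxygenase, read 8.01 and 8.35 on the controls and 8.09 and 8.02 with embelin, and the groups overlapped. Its log2 difference was -0.13 with a 95% interval of -0.64 to 0.39 (limma, adjusted p = 0.763), and at its dimmer probe, with 1 of 2 embelin arrays well above background, the difference was -0.22.

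LTA4H, which makes leukotriene B4 and is also an aminopeptidase, was, at the probes that stand for the 10 genes, the 1 enzyme with both embelin arrays under both controls. It read 15.09 and 14.95 on the controls and 14.73 and 14.64 with embelin. The log2 difference was -0.33 with a 95% interval of -0.76 to 0.09 (standard error 0.15, limma adjusted p = 0.330), and it stayed between -0.42 and -0.26 over the 16 alternatives in processing that gave a test. ALOX5 and LTA4H thus lay on opposite sides of 0, by less than the test could call.

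At the entry and the exit of the pathway the differences were again under 2-fold. PLA2G4A, the cytosolic phospholipase A2 and neighbour of PTGS2, read 12.55 and 12.12 on the controls and 12.86 and 12.82 with embelin. The embelin arrays lay above both controls, by a log2 difference of 0.51 with a standard error of 0.21 and a 95% interval of -0.07 to 1.09 (limma, adjusted p = 0.291). Without control 1 it was 0.72 and without control 2 it was 0.29, with 0.27 and 0.74 within the pairs of arrays of like background. HPGD, the dehydrogenase that inactivates prostaglandin E2, read 12.08 and 11.62 on the controls and 11.93 and 11.66 with embelin. The HPGD groups overlapped, with a log2 difference of -0.06 and a 95% interval of -0.71 to 0.60 (limma, adjusted p = 0.924), and its second probe differed by -0.12 with both embelin arrays just under the controls.

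**Figure D2:**
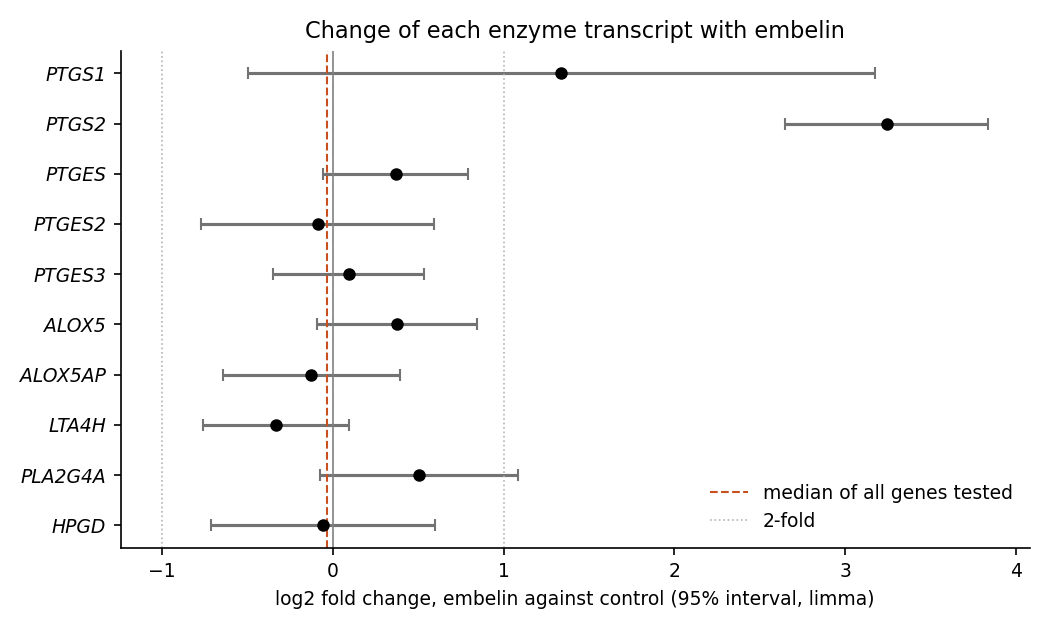
Log2 fold change of embelin against control for each enzyme (points) with its 95% interval from limma (bars), a dashed line at the median of all genes tested and dotted lines at a 2-fold change. The interval of PTGS2, from 2.65 to 3.84, is the only one that lies wholly on one side of 0.

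Of the 10 enzymes, 1 was called higher after adjustment, where 1.73% of the 17547 genes tested were, and 0 were called lower, where 0.918% of all genes were, or 1 against 2.64% in either direction (limma, adjusted p under 0.05). Without adjustment 1 of the 10 had p under 0.05 by limma, PTGS2 again, where 20.7% of all genes did, and by the methods' t-test 2 did, PTGS2 and PTGES, where 16.9% of all genes did. With no array left out, the limma count became 2 with the replicate block, PTGS1 being added, where 22.6% of all genes had such a p. It became 3 with a trended and robust eBayes, LTA4H and PLA2G4A being added, where 21.9% of all genes did. A 2-fold change, the threshold of the methods, together with unadjusted p under 0.05 by limma was met by 1 enzyme, which was higher, and by 8.06% of all genes, 4.34% higher and 3.73% lower. The groups did not overlap for 6 of the 10, with 5 higher and 1 lower, where 52.9% of the 17320 genes measured on each of the 4 arrays showed such a gap, 23.3% higher and 29.6% lower. The median log2 fold change over the 10 was 0.23, or 0.09 over the 9 without PTGS2, against -0.04 over all genes. All 10 passed the filter on dim probes, PTGS1 through its embelin arrays, since it asked for both arrays of at least 1 group. The smallest log2 change called anywhere in the table was 1.17, and 8 of the 10 enzymes differed by less than 2-fold.

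**Figure D3:**
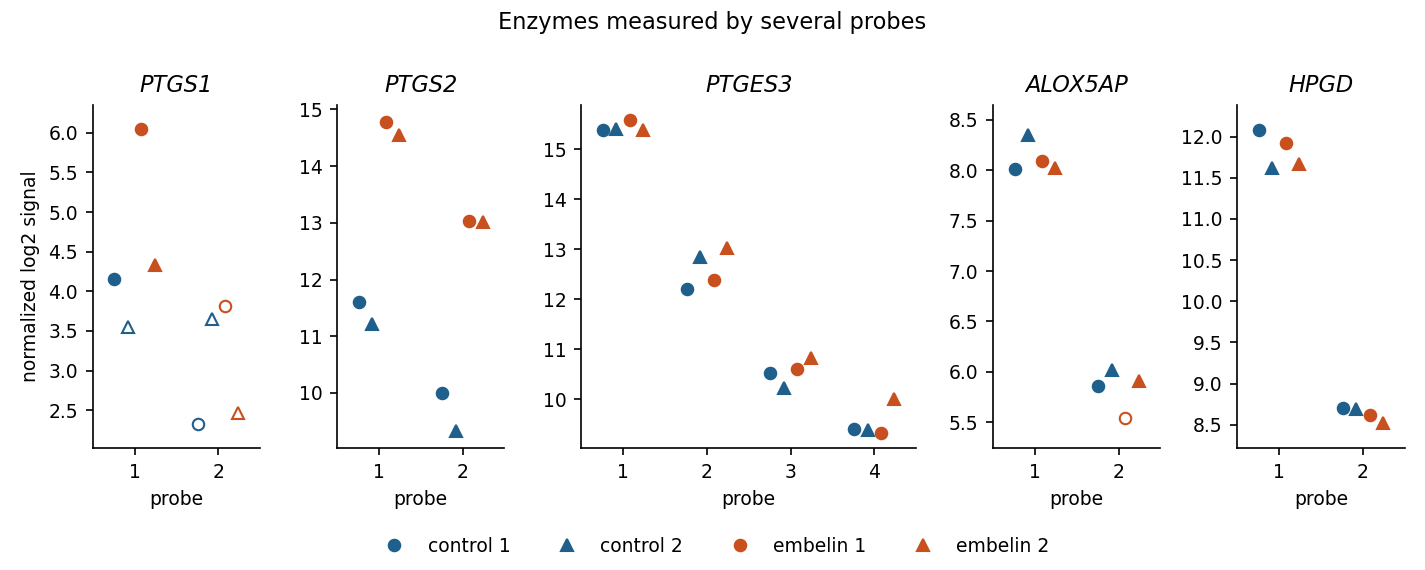
Normalized log2 signal on each array (vertical axis) at every probe of the 5 enzymes with several probes, numbered by brightness, with filled symbols where the spot was well above background and open symbols where it was not. Both PTGS2 probes separate embelin from control, the second PTGS1 probe is not well above background on any array, and among the probes of PTGES3, ALOX5AP and HPGD the groups are apart at the third PTGES3 probe, by 0.34, and at the second HPGD probe, by -0.12. Levels of different probes are not comparable.

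The wider eicosanoid pathway was described with 51 further genes, of which all were on the array and 23 were bright enough to test. None of the 23 was called after adjustment (limma), 4 had an unadjusted p under 0.05 by limma, where 20.7% of all genes did, and 2 by the methods' t-test, where 16.9% did. The median log2 fold change over the 23 was -0.01, against -0.04 over all genes. With 1 array left out at a time, this median ran from -0.11 to 0.04. The 4 were PTGER4, ABCC4, PLA2G6 and TBXAS1, and the latter 3, a prostanoid exporter, a calcium-independent phospholipase A2 and thromboxane synthase, were named after their values were seen. They differed by -0.58, 0.59 and -0.54 in log2, with limma adjusted p of 0.220, 0.182 and 0.170. By role, 6 of 14 other phospholipases A2, 3 of 5 other prostanoid synthases and 3 of 11 other lipoxygenases and leukotriene enzymes were tested. The same held for all 4 inactivating enzymes, 3 of 9 prostanoid receptors, 2 of 5 leukotriene and oxoeicosanoid receptors and 2 of 3 transporters.

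PTGER4, which encodes EP4, a receptor for prostaglandin E2, was the 1 further gene that met the 2-fold threshold with unadjusted p under 0.05. It read 8.01 and 7.55 on the controls and 5.93 and 6.45 with embelin, so both embelin arrays lay under both controls, and 1 of the 2 embelin arrays was not well above background. The log2 difference was -1.59 with a standard error of 0.28 (limma, adjusted p = 0.0826). Over the 15 alternatives that kept its probe the difference ran from -1.85 to -1.0 and the adjusted p from 0.0552 to 0.435. PTGER4 had 2 probes on the array, and only 1 passed the filter on dim probes. That probe passed only through its control arrays, and PTGER4 was not tested where the filter asked for all 4 arrays. PTGS2 and PTGER4 differed in opposite directions on the same arrays, and only PTGS2 passed the adjusted test.

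PLA2G2D and CYP4F3 were dim in the controls and did not pass the test, and both were named after their values were seen. PLA2G2D, a secreted phospholipase A2, read 4.07 and 3.85 on the controls, neither well above background, and 8.46 and 4.24 with embelin (limma, adjusted p = 0.449). The second embelin reading lay close to the controls, so no fold is given. CYP4F3, which inactivates leukotriene B4, read 5.24 and 4.86 on the controls and 7.84 and 5.08 with embelin (limma, adjusted p = 0.498), and 1 of its 2 control arrays was not well above background. As for PTGS1, the high reading in each was that of embelin array 1.

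**Figure D4:**
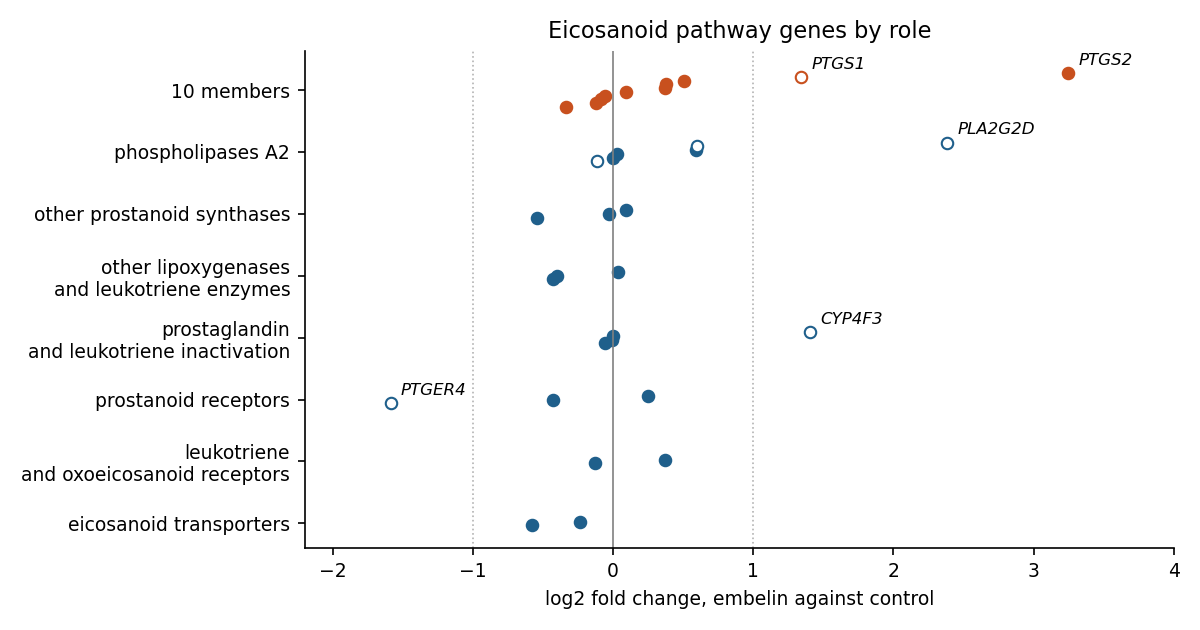
Log2 fold change of embelin against control (horizontal axis) for the 10 enzymes (orange) and the 23 tested genes of the wider pathway (blue), in rows by role, with open symbols where a gene was not well above background on every array and dotted lines at a 2-fold change. PTGS2 lies alone at 3.25 with a filled symbol, and the other genes past 2-fold on the measured signals, PTGS1, PLA2G2D, CYP4F3 and PTGER4, have open symbols.

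The cell type label was checked with marker genes. All 6 epithelial markers were well above background on all 4 arrays, with a summed signal of 18.68 and 18.86 in log2 on the controls and 18.59 and 18.55 with embelin. Leukocytes are the cells best known for the leukotriene branch. Of 7 leukocyte markers, 6 were on the array, 3 were tested and only CD14 was well above background on every array. The summed signal of these 3 was 9.63 and 9.81 on the controls and 10.01 and 9.19 with embelin, but they differed in direction. CD14 differed by -0.58 in log2, and CD3E and ITGAM by 1.28 and 1.37 (limma, adjusted p of 0.252, 0.295 and 0.379). CD3E and ITGAM were not well above background on control 2 and were kept only through their embelin arrays. PTPRC, the common leukocyte antigen, was well above background on 0 of 2 control and 1 of 2 embelin arrays. Of 4 fibroblast markers only COL1A1 was tested, and it rose from 6.36 and 6.27 to 7.61 and 7.66, a log2 difference of 1.33 (limma, adjusted p = 0.0454), while COL1A2 was well above background on 0 of 2 control and 1 of 2 embelin arrays and DCN and PDGFRB on none. None of 3 endothelial markers was tested. The part of COL1A1-expressing cells in the PTGS2 difference was not tested. In bulk RNA more cells of a type and more RNA per cell cannot be told apart.

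The 4 arrays lay on 1 slide, with the controls at positions 4 and 1 and the embelin arrays at 2 and 3. Positions 1 and 2 thus held control 2 and embelin 1, and positions 3 and 4 held embelin 2 and control 1, which are the pairs of like background given above. Each array carried 52857 spots. None of the 51538 that were not control spots was saturated, and no spot of the 10 enzymes was marked as an outlier by the scanner software. The arrays correlated at r = 0.973 within the controls, 0.972 within embelin and 0.926 to 0.968 between the groups, across 17320 genes, which are not independent replicates. With 2 arrays in each group, the small number of arrays sets how precise the values above can be.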

How the data were processed

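Gene expression was measured in 4 samples of A549 cells, 2 control and 2 embelin, on 1 custom Agilent slide. The authors deposited spot intensities written by Feature Extraction 10.7.3.1 (per the file headers), background-subtracted and detrended but not normalized between arrays. For the probes of the 10 enzymes, the table of probe values deposited beside them held identical intensities. The study's methods give Student's t-test, a shift to the 75th percentile and a threshold of 2-fold.

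Control spots and outlier spots were left out. The spots of each probe were averaged, and the averages were scaled to a common 75th percentile. Values under 1 were then set to 1 and log2 was taken. A probe was kept if either group had both of its arrays well above background, which left 25975 of 50238, and the brightest kept probe stood for its gene. Of all probes, 28595 were named by accession, 2998 by current and 1176 by older symbol, and 17469 kept the name in the file. Embelin was compared with control with limma 3.58.1 in R 4.3.3 (lmFit and eBayes, prior of 1.99 degrees of freedom, prior SD 0.20), with Benjamini-Hochberg adjustment over 17547 genes. The pooled SD of a gene was 0.20 in log2 at the median. The fit was run on simulated data with planted changes, where only the median size recovered was checked. No condition was set on the calls, and the simulated noise was independent between arrays. Tables and figures were made with Python 3.11.15.

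All 10 enzymes were to be named with every probe. A further pathway gene was to be named where it was called after adjustment, or where it changed at least 2-fold with unadjusted p under 0.05 and groups that did not overlap. The enzymes, lists and tests were chosen with earlier results of these data known. Promoters were matched to the enzymes by symbol in RefSeq, GRCh38.p14. The build named in the headers of the arrays differs, and no probe position was used. Alternatives tried were normexp background correction with an offset of 50, quantile normalization, the deposited probe values, dropping the filter on dim probes or asking for all 4 arrays, the t-test of the methods, a trended and robust eBayes, blocks by replicate number or by a crossed pairing, other treatments of several probes, keeping outlier spots, and leaving out each array in turn.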

Additional observations from a re-analysis of the deposited data

How the results depend on the processing

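PTGS2 was higher with embelin under each of the 16 alternatives that gave a test and was called in 8. At an unchanged log2 difference of 3.25 its adjusted p was 0.292 without a filter on dim probes, 0.0636 with the replicate number as a block, 0.188 with the crossed replicate block and 0.162 by the methods' t-test. Leaving out 1 array gave 3.05 to 3.44, and the pairs of arrays of like background gave 2.93 and 3.56. Under those 4 settings and without any 1 array, 0 of the 10 enzymes and 0 genes in all were called in either direction, with 2560, 3959, 2737 and 2967 genes at an unadjusted p under 0.05 under the 4 settings and 2171 to 3288 without 1 array.

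The 303 genes called higher and 161 called lower became 183 and 66 with quantile normalization, 156 and 56 with the deposited table, 479 and 375 with a filter that asked for all 4 arrays, 581 and 469 with trend and robust, and 126 and 33 with outlier spots kept. Genes called lower numbered 271 with normexp, 100 with each probe on its own and 103 with the mean over probes. The 1415 genes that met the 2-fold threshold with unadjusted p became 881 with normexp. By that threshold 2 enzymes in place of 1 passed with the replicate block, PTGS1 being added, where 1700 of 17547 genes did. Of the wider pathway 0 passed with the filter that asked for all 4 arrays, 2 with each probe on its own, TBXA2R being added, and 1 to 3 without 1 array. Only the dimmer TBXA2R probe passed, at a log2 difference of 1.04. It was not well above background on control 2 and was kept through its embelin arrays. The brighter probe, which stands for TBXA2R and was well above background on all 4 arrays, differed by -0.43.

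Among the 10 enzymes and PTGER4, signs turned in a fit for ALOX5AP, HPGD, PTGES2 and PTGES3. The median of the wider pathway, -0.01, was 0.04 without control replicate 1, and its other genes were not followed one by one. Leaving out 1 array gave log2 differences of -0.29 to 0.042 for ALOX5AP, above 0 without control replicate 2, and -0.29 to 0.17 for HPGD, above 0 without control replicate 1 and, at 0.07, without embelin replicate 2. It gave -0.33 to 0.15 for PTGES2, above 0 without control replicate 2 and, at 0.07, without embelin replicate 1, and -0.0088 to 0.20 for PTGES3, below 0 without embelin replicate 1. PTGES3 was -0.0024 with normexp. The cause was not tested for any of these. The difference between replicates 1 and 2 in the controls correlated with that in embelin at r = 0.174 over 17320 genes. It rests on 2 arrays in each group, too few to say that the numbers pair the samples. Signal over background limits PTGS1, and the number of arrays limits all values.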
